A study of Homo sapiens with 16 samples.

Results

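The miRNAs described here carry names above hsa-miR-999, given late in the numbering of human miRNAs. They were the probes named hsa-miR-N with N from 1000 to 6714 or above 6895 that had a value on all 16 arrays, leaving out miR-3651, miR-3607, miR-3653, miR-1291, miR-1248, miR-1273g, miR-4454 and miR-1260a. This rule gave 139 of the 2565 miRNA probes, and 1280 probes had a name in the range and were not among those left out. The rule used names and detection, and no comparison between groups. OE19 is a human esophageal adenocarcinoma cell line, and telmisartan blocks the angiotensin II type 1 receptor. The control group was 8 arrays of untreated OE19 cells, and the telmisartan group was 8 arrays of OE19 cells given 100 μM telmisartan for 48 h. In the labels the arrays of a group carry the numbers 1 to 8, and no batch is named. Nothing in the labels or the study's methods says that they were separate cultures, and the p-values therefore cover only the spread among these arrays, which may be technical. OE19 is a single line, so no other tumor was sampled.

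A miRNA is a short RNA cut from a hairpin precursor, usually by Drosha and then Dicer, and loaded into an Argonaute protein. Bases 2 to 8 of the mature strand, the seed, pair with sites in target mRNAs and lower their translation or stability. Most later numbers come from deep sequencing of small RNA, and many of these entries are at low copy number. Some are mirtrons, which are whole short introns released by splicing without Drosha. Others resemble known stable RNAs: miR-1246 has been described as a fragment of the U2 spliceosomal RNA, and miR-1973 and miR-4485 match mitochondrial sequence.

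RefSeq (GRCh38.p14) gave a mature sequence for 119 of the 139 miRNAs (85.6%) and for 216 of the other 243 probes detected on all arrays (88.9%). The sequences below run 5′ to 3′ with the seed in capitals. The first set is shown because these 7 were among the 9 miRNAs whose level differed between telmisartan and control over 16 arrays.
miR-4429: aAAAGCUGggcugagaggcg
miR-6131: gGCUGGUCagaugggagug
miR-8059: gGGGAACUguagaugaaaaggc
miR-5100: uUCAGAUCccagcggugccucu
miR-7847-3p: cGUGGAGGacgaggaggaggc
miR-7114-5p: uCUGUGGAguggggugccugu
miR-4632-5p: gAGGGCAGcguggguguggcgga

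The second set is shown because the level of these miRNAs differed between control arrays 1 to 4 and 5 to 8, by at least 1.5-fold in each case, and the first 7 were higher in arrays 5 to 8.
miR-1275: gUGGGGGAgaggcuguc
miR-1246: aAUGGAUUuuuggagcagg
miR-4442: gCCGGACAagagggagg
miR-6165: cAGCAGGAggugaggggag
miR-4485-3p: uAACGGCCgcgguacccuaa
miR-1237-5p: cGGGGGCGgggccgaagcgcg
miR-4488: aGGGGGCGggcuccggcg
miR-4521: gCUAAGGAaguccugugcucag
miR-4289: gCAUUGUGcagggcuauca
miR-4638-5p: aCUCGGCUgcgguggacaagu

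The third set shows the start GUGGG, which 6 of the 119 sequences and 1 of the 216 other sequences carried at the 5′ end. A mirtron starts at the first bases of its intron, where splice sites usually read GU. Whether each of the 6 is a mirtron was not tested, and miR-1275 among them lay in no protein-coding span.
miR-1227-5p: gUGGGGCCaggcggugg
miR-1228-5p: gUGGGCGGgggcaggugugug
miR-1229-5p: gUGGGUAGgguuugggggagagcg
miR-3620-5p: gUGGGCUGggcugggcugggcc
miR-3940-5p: gUGGGUUGgggcgggcucug
miR-1275 is the 6th and stands above.

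Of the miRNAs with one place in the genome, 113 in number, 78 lay within the span of a protein-coding gene, on either strand. In GRCh38.p14, miR-4429 is at chr2:11540652-11540671 on the minus strand within GREB1, an estrogen-responsive gene. miR-7847-3p is at chr11:1880105-1880125 (plus) within LSP1, a gene of leukocytes. miR-7114-5p is at chr9:137450061-137450081 (minus) within NSMF, and miR-4632-5p is at chr1:12191713-12191735 (plus) within TNFRSF1B, a receptor for tumor necrosis factor. miR-6131 is at chr5:10478107-10478125 (plus) within ROPN1L. miR-5100 at chr10:42997630-42997651 (plus) and miR-8059 at chr17:50768660-50768681 (plus) lay in no protein-coding span. miR-1275 at chr6:34000018-34000034 (minus) and miR-4521 at chr17:8186948-8186969 (plus) also lay in none.

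Each array gave 1 intensity per probe, and a probe counted as detected above the array's background level. Control arrays detected 454 to 1621 probes and telmisartan arrays 458 to 1885. The background was 23.0 to 32.5 on control arrays 1 to 4 and 14.9 to 23.1 on control arrays 5 to 8, and 22.6 to 33.6 and 19.9 to 24.0 on telmisartan arrays 1 to 4 and 5 to 8. As a check of the cell type, 8 of 8 miRNAs of epithelial and columnar gut cells (the miR-200 family, miR-192, miR-194, miR-215 and miR-375) were detected on all arrays. Of 10 miRNAs of other cell types, 8 were detected on 5 arrays or fewer, miR-451a of red cells on 14 and miR-126-3p of endothelium on 16. The epithelial and gut miRNAs had median intensities above background from 19.5 for miR-375 to 2560 for miR-194-5p. That of miR-126-3p was 48.7, above miR-375 and below the others of the 8. The part of miR-126-3p in the results was not tested.

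Few later-named miRNAs reached detection on every array. Of the 1280 probes in the range, 232 were detected on no array, 909 on 1 to 15 arrays and 139 (10.9%) on all 16, whereas 237 of 1274 probes outside the range (18.6%) were on all 16. By name, 21 of 173 probes numbered 1000 to 1999 were on all arrays, 2 of 28 in the 2000s, 19 of 274 in the 3000s, 61 of 505 in the 4000s and 6 of 116 in the 5000s. The range from 6000 to 6714 gave 14 of 73, and numbers from 6896 upward gave 16 of 111. Of the range, 162 to 361 probes (median 219) were detected on control arrays 1 to 4 and 256 to 725 (median 527) on control arrays 5 to 8. On telmisartan arrays these were 201 to 574 (median 400.0) and 176 to 873 (median 387), so only the control group had the higher median in the second set. Just outside the rule, 25 probes were detected on 15 arrays, with median intensities above background of 5.53 to 19.7, and the 25 dimmest probes inside it had 6.96 to 12.4. The missing array was a control array for 21 of those 25 probes.

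Levels below are intensities above background after quantile normalization over the 382 probes detected on all arrays, which gives every array the same set of values. The median intensity above background of the 139 probes ran from 6.96 to 10807, with a median of 28.8 over the probes. The normalization leaves no room for change in the probe of highest rank: miR-7975 had 11071 on all 16 arrays. The probes of miR-1260b and miR-7977 shared the values 5217 and 4363 between them, and miR-1260b had the higher value on numbers 1, 5, 6, 7 and 8 in both groups. Every normalized value stands for the rank of its probe on the array. For these 3 miRNAs, chosen after their values were seen, a change in level that left the rank unchanged would not show.

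Over 16 arrays, 9 of the 139 later-named miRNAs (6.47%) differed between telmisartan and control at an adjusted p under 0.05 (limma, Benjamini-Hochberg over 382 probes), where 17% of all 382 probes did. Of these, 4 rose (9.69% of all probes rose) and 5 fell (7.33% of all probes fell). At the adjusted threshold, 33 of the other 243 probes rose and 23 fell. At an unadjusted p under 0.05, 7 of the 139 were higher and 10 lower, and the share over all probes was not counted. The log2 fold changes had a median of -0.03 over the 139 and -0.01 over all 382. The 130 that missed the threshold had log2 fold changes from -0.41 to 0.46. The groups did not overlap for 2 of the 139, both with telmisartan lower (1.31% of all probes), and 0 of the 139 had telmisartan higher without overlap (2.36% of all probes). Leaving out 1 array gave 3 to 7 falls, with 3 without control array 1 or 3. It gave 1 rise without control array 1 or telmisartan array 3 or 4, 2 rises without control array 3, 4 or 5 or telmisartan array 1, 2, 5, 7 or 8, and otherwise 3 to 5. In total RNA of a culture, fewer cells holding a miRNA and less of it per cell cannot be told apart.

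miR-4286 fell with the lowest adjusted p of the 139. Control arrays had 1856 to 2617 (median 2136) and telmisartan arrays 1086 to 1553 (median 1357), and the groups did not overlap. The log2 fold change was -0.74 with a standard error of 0.10, a level of 0.599 times control (n = 8 arrays each, limma adjusted p = 7.19e-05). miR-7847-3p was the other miRNA without overlap: 16.7 to 22.3 (median 19.0) in control and 10.7 to 15.9 (median 13.9) in telmisartan arrays. Its log2 fold change was -0.48 (standard error 0.09, limma adjusted p = 0.00114).

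miR-5100 had the largest fall of the 139, and its level also differed between array sets. Control arrays 1 to 4 had 1856, 1691, 1944 and 1794, and control arrays 5 to 8 had 890, 1086, 1128 and 834. Telmisartan arrays 1 to 4 had 890, 1026, 921 and 1026, and arrays 5 to 8 had 498, 681, 630 and 614. Every telmisartan array was below all control arrays of its own set, whereas 4 of 8 were below every control array of both sets. The log2 fold change over 16 arrays was -0.81 (standard error 0.21, limma adjusted p = 0.0155), or 0.571 times control. miR-4286 and miR-5100 are on the list that the study chose on these samples, so their falls here are not independent evidence of that list.

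miR-7114-5p and miR-4632-5p fell over 16 arrays with the fall mainly in the first set. For miR-7114-5p, control arrays 1 to 4 had 23.8, 19.9, 24.7 and 26.5 against 13.1, 13.9, 13 and 13.4 with telmisartan. Control arrays 5 to 8 had 13.1, 16.1, 15.7 and 14.1 against 9.22, 13.2, 13.7 and 15, so the groups overlapped there. For miR-4632-5p, control arrays 1 to 4 had 51.8, 53.8, 50.9 and 53.8 and all other arrays lay between 29.8 and 41.0. Their log2 fold changes over 16 arrays were -0.52 (standard error 0.15, limma adjusted p = 0.0264) and -0.34 (standard error 0.10, limma adjusted p = 0.0301).

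miR-4429 rose with the smallest standard error of the 4 rises. Control arrays had 150 to 198 (median 168) and telmisartan arrays 191 to 230 (median 206), and 5 of 8 telmisartan arrays were above every control array. The log2 fold change was 0.32 (standard error 0.07, limma adjusted p = 0.00403). miR-4429 has the seed AAAGCUG of the miR-320 family, whose best-known member is made without Drosha. In the same fit miR-320b had a log2 fold change of 0.29 (limma adjusted p = 0.0445), miR-320d 0.28 (0.0296) and miR-320c 0.23 (0.0859), the last past no threshold. Seeds were compared only among sequences matched by name, and no value is given here for other members of the family. Within arrays 1 to 4 miR-320b, miR-320c and miR-320d had 0.46, 0.44 and 0.48, and within arrays 5 to 8 only 0.12, 0.01 and 0.08. For miR-4429 these were 0.37 and 0.26. These sequences are alike beyond the seed, and shared signal between their probes was not tested.

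The other 3 rises were in probes with intensities of 64.5 or less. miR-8059 had 5.25 to 9.12 (median 8.05) in control and 7.44 to 16.1 (median 11.4) in telmisartan arrays, and the groups overlapped. Its log2 fold change was 0.54 (standard error 0.17, limma adjusted p = 0.0334), which became an adjusted p of 0.079 with the array number as a block. miR-6131 had 18.3 to 40.1 (median 36.9) in control and 39.1 to 64.5 (median 44.3) in telmisartan arrays, with 7 of 8 telmisartan arrays above every control array (0.47, standard error 0.15, limma adjusted p = 0.0397). miR-5096 had 7.70 to 13.3 (median 10.0) and 10.6 to 14.9 (median 13.3), with a log2 fold change of 0.38 (standard error 0.12, limma adjusted p = 0.0296). miR-4286, miR-5100, miR-7847-3p and miR-4429 passed the threshold without each of the 16 arrays in turn. miR-6131 lost it without any 1 of 10 arrays, miR-5096 of 9, miR-4632-5p and miR-8059 of 8 each, and miR-7114-5p of 3.

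Other processing also ended calls among the 9. With median scaling, miR-4429, miR-5100, miR-4632-5p and miR-5096 lost theirs. Without scaling, only miR-4286 and miR-5100 kept theirs. In the exact Mann-Whitney test miR-5100, miR-4632-5p and miR-8059 lost theirs, and with quantile normalization over the probes detected on each array all 9 did. miR-5096 and miR-8059 also lost theirs with normexp background correction or without the dimmest 25% of probes.

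**Figure D1:**
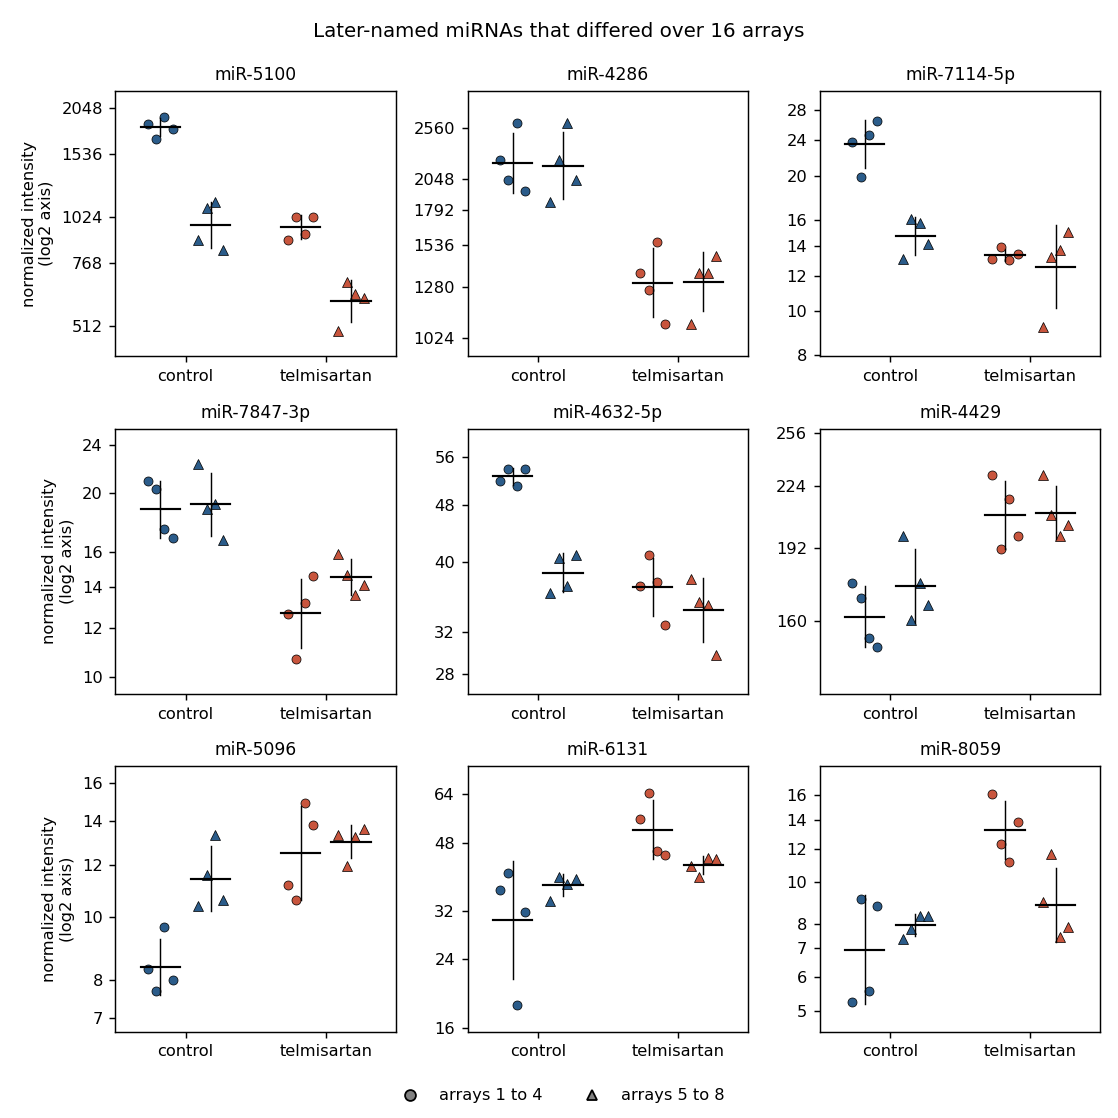
Normalized intensity on a log2 axis for the 9 later-named miRNAs that differed over 16 arrays, one point per array, with circles for arrays 1 to 4 and triangles for arrays 5 to 8. Horizontal lines are means and vertical lines SDs of the 4 arrays on the log2 scale. The circles and triangles of the control group lie apart for miR-5100 (1691 to 1944 against 834 to 1128) and overlap for miR-4286.

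Within arrays 1 to 4, more of the later-named miRNAs passed the threshold than over 16 arrays, and most of these rose, while most of the fewer that passed within arrays 5 to 8 fell. Within arrays 1 to 4, 35 rose (21.2% of all 382 probes rose) and 14 fell (19.9% of all), together 49 against 41.1% of all probes. Within arrays 5 to 8, 4 rose (16% of all) and 12 fell (10.2% of all), together 16 against 26.2% of all probes. Fits of each set alone gave 34 rises and 13 falls in arrays 1 to 4, and 0 rises and 7 falls in arrays 5 to 8. Without scaling the arrays, the counts were 64 and 3 within arrays 1 to 4 and 0 and 1 within arrays 5 to 8. With median scaling they were 33 and 18, and 3 and 8, and with quantile normalization over the probes detected on each array 0 in each. The shares over all probes were not counted for these settings or with 1 array left out. Without scaling, the change within arrays 5 to 8 minus that within arrays 1 to 4 had a median of -0.32 over all probes and -0.70 over the 139. In the main fit these medians were -0.03 and -0.34. Without telmisartan array 3, 9 fell within arrays 1 to 4. Without telmisartan array 6, which detected the most probes, 30 fell within arrays 5 to 8, and without control array 8, 20 fell. Without control array 7, telmisartan array 5 or telmisartan array 7, 5 fell and 0 rose in each case, without telmisartan array 8, 6 fell and 0 rose, and without control array 5, 7 fell and 1 rose. Without control array 2 or 6, 1 rose and 10 fell, and without telmisartan array 3 or control array 3, 2 rose and 11 fell.

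Of the 35 that rose within arrays 1 to 4, 27 had a lower telmisartan than control mean within arrays 5 to 8, and 3 of them fell there past the threshold: miR-1275, miR-4530 and miR-4749-5p. Only miR-4429 rose in both sets, with a limma adjusted p of 0.0431 within arrays 5 to 8. It missed the threshold in the fit of arrays 5 to 8 alone. Without control array 7 or telmisartan array 5, 7 or 8, 0 of the 139 rose within arrays 5 to 8. Of the 14 that fell within arrays 1 to 4, 12 were lower in arrays 5 to 8 too, and miR-4286, miR-5100 and miR-7847-3p fell in both. Like counts among all probes that rose or fell within arrays 1 to 4 were not made. Over all 139, the sign was opposite in the sets for 87, the same for 49 and undefined for 3 with a tie, against 106 opposite of the other 243 probes. In 79 of the 87, the log2 fold change was above 0 in arrays 1 to 4 and below 0 in arrays 5 to 8. In arrays 1 to 4 the log2 fold changes had a median of 0.15 over the 139 and 0.03 over all 382 probes, and in arrays 5 to 8 the medians were -0.17 and -0.07. The sets have separate arrays, and telmisartan arrays 1 to 4 lay above all controls of their set for 27 miRNAs (16.8% of all probes) and below for 11 (14.4%). In arrays 5 to 8 this held for 1 (12% of all probes) and 8 (8.64%).

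**Figure D2:**
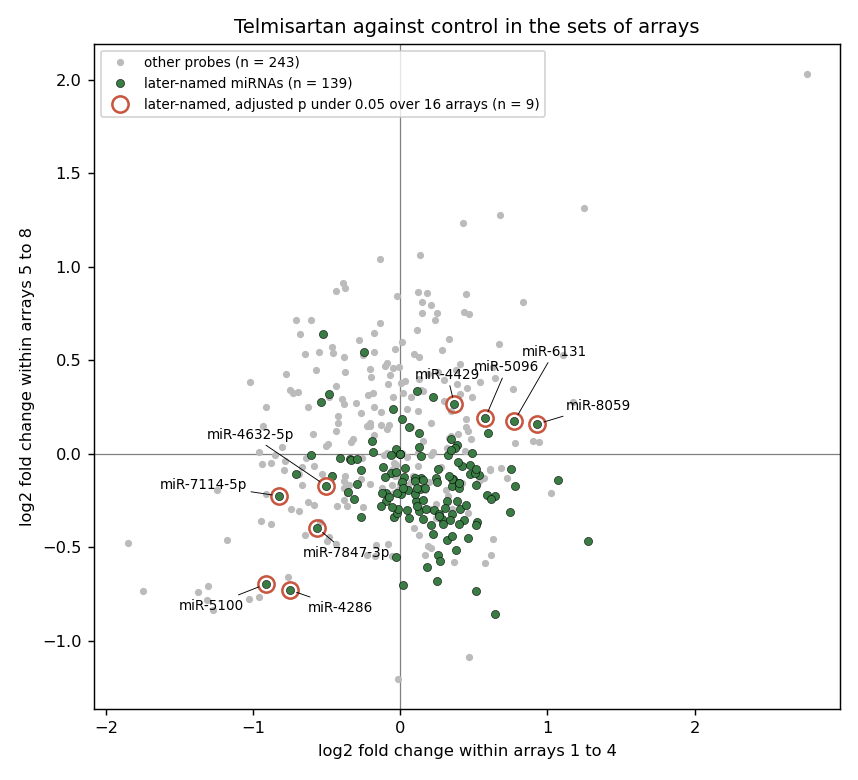
Log2 fold change of telmisartan against control within arrays 1 to 4 (horizontal axis) and within arrays 5 to 8 (vertical axis), one point per probe, green for the 139 later-named miRNAs and grey for the other 243 probes. Rings mark the 9 that differed over 16 arrays, and 79 green points lie at the lower right (higher in arrays 1 to 4, lower in arrays 5 to 8).

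The difference between the sets was tested as the interaction of treatment and set. It passed the threshold for 52 of the 139 (35.3% of all 382 probes), of which 44 had a smaller log2 fold change in arrays 5 to 8 (18.8% of all) and 8 a larger one (16.5% of all). In 46 of the 52 the sets had opposite signs, which a large interaction favors, and the share over all probes was not counted. Of the 9 miRNAs called over 16 arrays, 3 were among them: miR-8059, with an interaction of -0.77, miR-4632-5p with 0.34 and miR-7114-5p with 0.60. The count of 52 was 27 without control array 7, 31 without telmisartan array 5 or 7 and 33 without telmisartan array 8.

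miR-4294 had the largest rise within arrays 1 to 4. Its control arrays 1 to 4 had 17.4, 18.3, 14.7 and 14.1 and its telmisartan arrays 1 to 4 had 34.9, 45.7, 37.9 and 37.6, which is 2.42-fold (limma adjusted p = 0.000171). Control arrays 5 to 8 had 68.1, 56.2, 81.7 and 48.5 and telmisartan arrays 37.1, 68.1, 40.1 and 41.0, which is 0.723-fold (limma adjusted p = 0.0838). The 4 control arrays of the first set were thus the low ones, and the interaction was -1.74 (limma adjusted p = 0.00118). miR-1275 had the same layout, with control arrays 1 to 4 at 29.4, 24.4, 14.2 and 18.6, control arrays 5 to 8 at 89.7, 80.3, 136 and 70.6, and telmisartan arrays between 28.2 and 75.3. It rose 1.56-fold in arrays 1 to 4 (limma adjusted p = 0.0490) and fell to 0.551 times control in arrays 5 to 8 (0.0188).

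miR-1237-5p, a mirtron within RPS6KA4, rose 2.10-fold within arrays 1 to 4 (limma adjusted p = 2.1e-05), from 56.2, 48.5, 46.8 and 39.1 to 82.8, 100, 103 and 113. In arrays 5 to 8, control arrays had 81.7, 88.6, 103 and 86.0 and telmisartan arrays 73.1, 95.7, 80.3 and 77.1, so that the groups overlapped. miR-3135b showed no rise in the first set and a clear fall in the second: control arrays 5 to 8 had 186, 186, 208 and 182 and telmisartan arrays 108, 112, 119 and 129, or 0.613 times control (limma adjusted p = 0.00016). In arrays 1 to 4 its fold was 1.01, and over 16 arrays its adjusted p was 0.0626. miR-4530 and miR-4749-5p rose 1.37-fold and 1.35-fold in arrays 1 to 4 and fell to 0.732 and 0.783 times control in arrays 5 to 8. miR-1469 rose 1.71-fold in arrays 1 to 4 and had 0.886-fold in arrays 5 to 8, and miR-7150 fell to 0.601 times control in arrays 5 to 8, with interactions of -0.95 and -1.25.

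A smaller group ran the other way. miR-4638-5p had an interaction of 1.17 (limma adjusted p = 0.0191), with 44.6, 56.2, 43.6 and 62.3 in control arrays 1 to 4 against 42.2, 34.5, 34.5 and 31.4 with telmisartan. In arrays 5 to 8, the control values were 31.4, 40.1, 19.4 and 40.5 and the telmisartan values 69.0, 37.6, 49.0 and 46.2, and it rose there (1.56-fold), with an adjusted p just under the threshold. miR-4289 rose 1.46-fold in arrays 5 to 8 (limma adjusted p = 0.0408) and had 0.844-fold in arrays 1 to 4 (0.307). miR-4521 fell to 0.713 times control in arrays 1 to 4 (limma adjusted p = 0.0265) and had 1.25-fold in arrays 5 to 8 (0.156). miR-4664-5p fell to 0.611 and miR-4634 to 0.657 times control in arrays 1 to 4, and their folds in arrays 5 to 8 were 0.926 and 0.995. The interaction passed the threshold for miR-4664-5p (0.60, limma adjusted p = 0.0204) and not for miR-4634 (0.60, 0.0967). miR-6516-5p and miR-4449 were among the higher folds within arrays 5 to 8 and had no called interaction (0.22, limma adjusted p = 0.260, and 0.08, 0.767). miR-6516-5p rose 1.26-fold in arrays 5 to 8 and miR-4449 had 1.23-fold there (limma adjusted p = 0.136).

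The untreated arrays themselves differed between the sets, and the later-named miRNAs did so mostly in one direction. In control arrays 5 to 8 against 1 to 4, 103 of the 139 differed (72% of all 382 probes), 88 higher (36.9% of all) and 15 lower (35.1% of all), whereas 53 of the other 243 probes were higher and 119 lower. The other probes rich in G and C also went mostly upward. At 70% to under 80% GC, 12 of 21 others were higher and 2 lower, and from 80% upward 8 of 11 and 0. At 60% to under 70% GC, 16 of 42 others were higher and 17 lower, and under 50%, 7 of 86 and 61. Control arrays 5 to 8 were all above control arrays 1 to 4 for 82 of the 139 (34.8% of all probes) and all below for 14 (31.2%). The median log2 difference was 0.50 over the 139 and 0.02 over all 382. Quantile normalization gives every array the same set of values, so higher and lower here are relative to the other probes. Without scaling, the median was 0.59 over all probes and 1.12 over the 139, of which 117 were higher and 3 lower. The share of all probes called was not counted there. The 139 stayed above all probes by 0.53 with median scaling or no scaling, 0.41 with quantile normalization over detected probes and 0.15 with normexp. In telmisartan arrays 5 to 8 against 1 to 4, 12 of the 139 differed (10.5% of all probes), 8 higher (4.71% of all) and 4 lower (5.76% of all), with a median of 0.13. The within-set changes and the interaction use these same control arrays, so the comparisons are not independent. In the control group the median number of detected probes was 598.5 in the first set and 1210.5 in the second, against 991.5 and 931 in the telmisartan group, with overlapping ranges in both groups. The mean background was lower in the second set in both groups, at 27.7 and 20.1 in control and 29.7 and 21.3 in telmisartan arrays. The part of detection and background in these results was not tested.

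**Figure D3:**
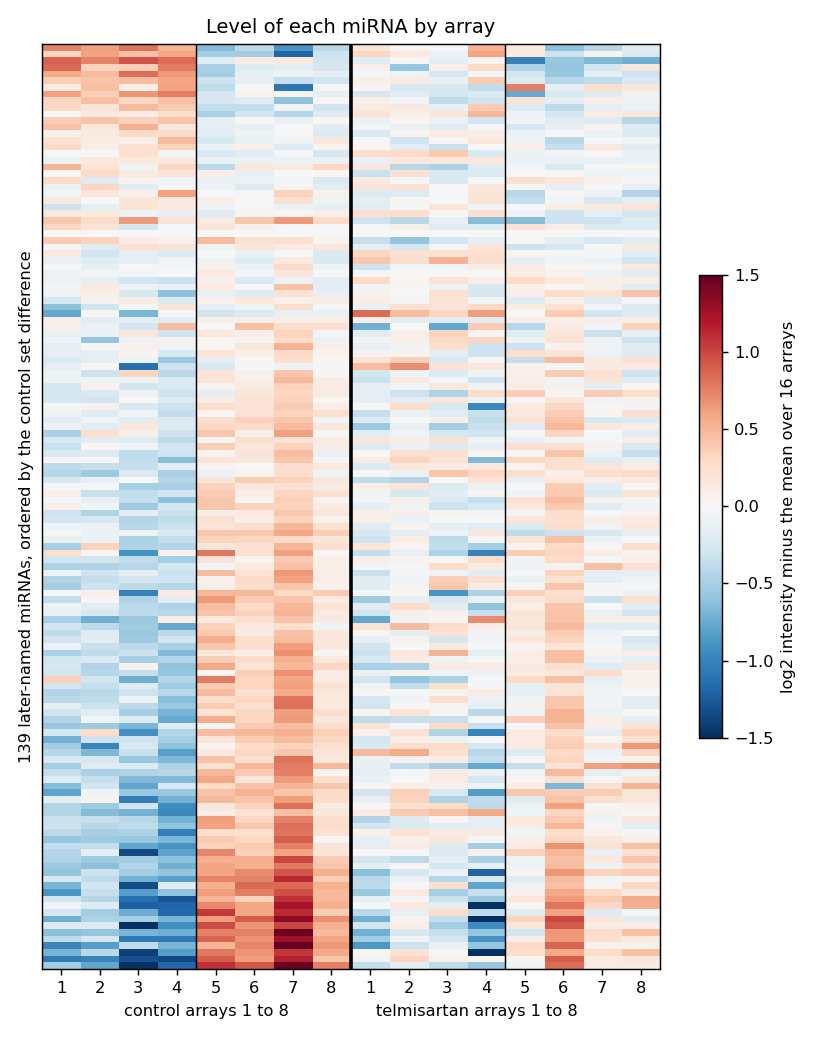
Log2 normalized intensity of each of the 139 later-named miRNAs (rows) on each array (columns), minus the mean of the row over 16 arrays, with rows ordered by the difference between the control sets. In the lower rows control arrays 1 to 4 are blue (below the mean) and control arrays 5 to 8 red (above it), and telmisartan arrays are paler. Colors stop at 1.5.

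At 2-fold or more, 19 of the 139 were higher in control arrays 5 to 8 (7.85% of all 382 probes) and 2 were lower (11% of all), whereas 11 of the other 243 probes were higher and 40 lower. miR-1275 led with 4.37-fold, followed by miR-4294 with 3.89-fold, miR-4442, within TOP2B, with 3.04-fold, miR-1246 with 3.01-fold and miR-6165, within NGFR, with 2.92-fold (limma adjusted p from 4.1e-06 to 0.000402). miR-4521 had 0.419-fold, miR-4289 0.460-fold, miR-5100 0.537-fold, miR-4634 0.553-fold and miR-4664-5p 0.559-fold, the largest differences downward. Telmisartan arrays 5 to 8 against 1 to 4 gave folds of 1.54 for miR-1275 (limma adjusted p = 0.110), 1.16 for miR-4294 (0.436) and 0.735 for miR-4521 (0.0844). For miR-5100 the telmisartan sets differed as well, at 0.624-fold (limma adjusted p = 0.00276).

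**Figure D4:**
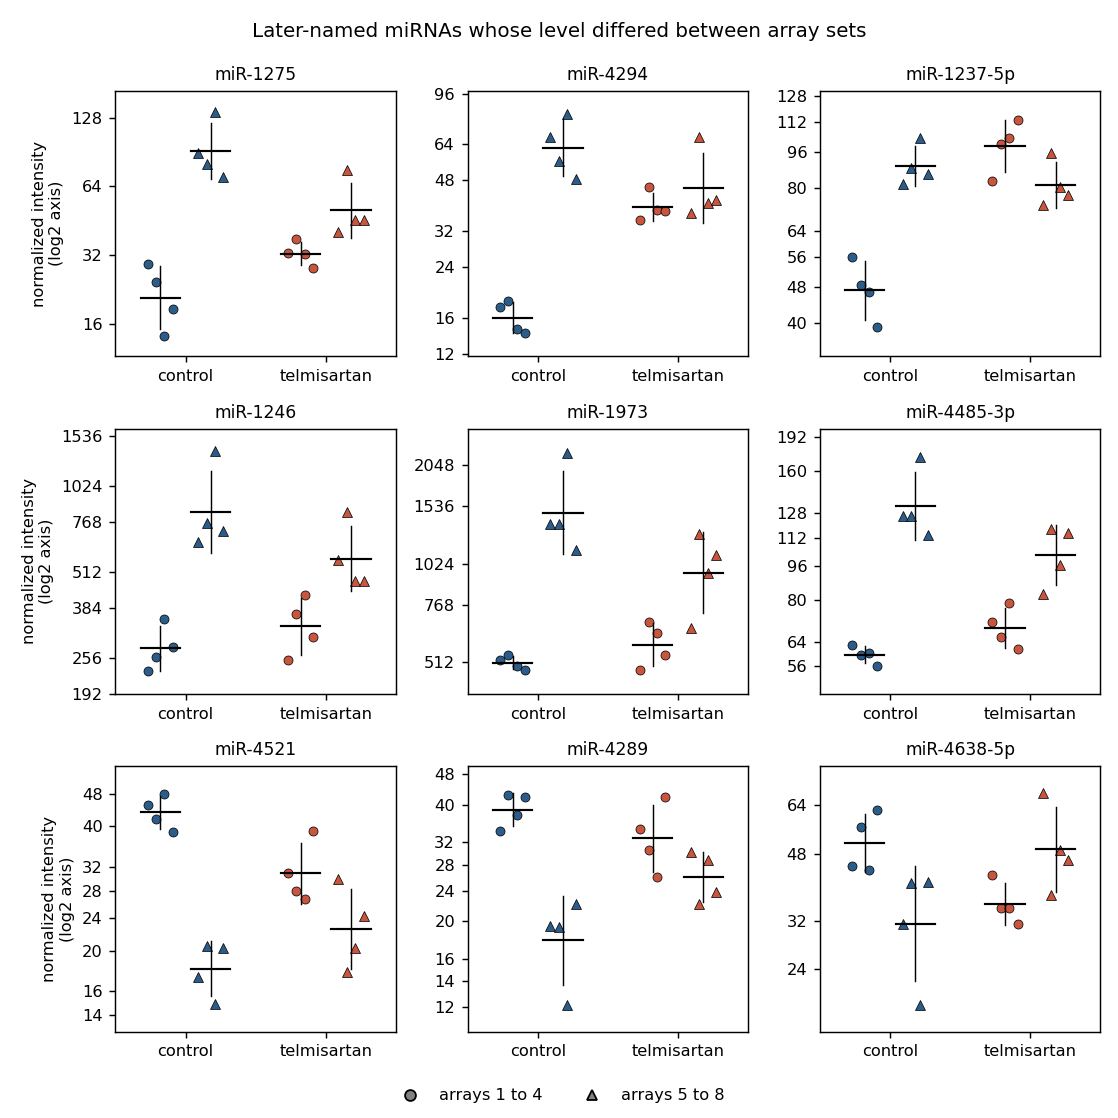
Normalized intensity on a log2 axis of 9 later-named miRNAs, one point per array, with circles for arrays 1 to 4 and triangles for arrays 5 to 8. Horizontal lines are means and vertical lines SDs of the 4 arrays on the log2 scale. Control circles and triangles do not overlap for any of the 9.

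miR-1246, miR-1973 and both arms of miR-4485, which resemble parts of stable RNAs, were 2-fold or more higher in control arrays 5 to 8. They had no called change over 16 arrays. They were among 19 later-named miRNAs higher by 2-fold or more in those control arrays, as were 7.85% of all 382 probes. No full list of later-named miRNAs that resemble stable RNAs was made. Whether the difference is particular to such miRNAs was therefore not tested. miR-1246 had 230, 258, 351 and 281 in control arrays 1 to 4 and 652, 760, 1357 and 715 in control arrays 5 to 8. Its telmisartan arrays had 251, 365, 426 and 304 and then 564, 834, 477 and 477, and its log2 fold change over 16 arrays was -0.14 (standard error 0.35). miR-1973, chosen after its values were seen, had 486 to 539 in control arrays 1 to 4 and 1128 to 2229 in control arrays 5 to 8, and fell to 0.656 times control within arrays 5 to 8 (limma adjusted p = 0.0428). Both arms of miR-4485 were measured: the 3p arm was 2.22-fold and the 5p arm 2.03-fold higher in control arrays 5 to 8, with log2 fold changes over 16 arrays of -0.09 and 0.18. The arms of miR-4758 had log2 fold changes of -0.15 (5p) and -0.18 (3p), and the arms of miR-6516, 0.22 (5p) and 0.10 (3p), none past the threshold.

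Among mirtrons, a run of names from miR-1224 to miR-1238 lists 12 miRNAs, and 5 of them had a member detected on all arrays: miR-1227-5p, miR-1228-5p, miR-1229-5p, miR-1233-5p and miR-1237-5p. Over 16 arrays, 0 of 5 passed the threshold in limma (17% of all probes) or in the exact Mann-Whitney test. At an unadjusted limma p under 0.05 there were 2, against 17 of the 139, and the share over all probes was not counted. The log2 fold changes ran from -0.13 for miR-1227-5p to 0.46 for miR-1237-5p. miR-1228-5p, within LRP1, had 34.2 to 46.8 in control and 37.6 to 52.5 in telmisartan arrays, and rose 1.30-fold within arrays 1 to 4 (limma adjusted p = 0.00516) and had 1.03-fold within arrays 5 to 8. miR-1229-5p, within MGAT4B, had 11.6 to 68.1 in control arrays, and was 2.87-fold higher in control arrays 5 to 8 than in arrays 1 to 4 (limma adjusted p = 0.000397). miR-1233-5p had 76.6 to 158 in control and 75.3 to 150 in telmisartan arrays. The log2 fold changes of the 5 over 16 arrays had both signs. Within arrays 1 to 4 they were above 0 for all 5, from 0.04 for miR-1227-5p to 1.07 for miR-1237-5p. The interaction of treatment and set was below 0 for all 5, from -0.34 to -1.21. It passed the threshold only for miR-1237-5p (limma adjusted p = 0.00118). Control arrays 5 to 8 had the higher mean for all 5, which missed the threshold for miR-1228-5p and miR-1233-5p. Most of the 139 had these signs too, so they are not particular to the run. Over the 139, the change within arrays 1 to 4 had a median of 0.15. The interaction had an upper quartile of -0.03 and the control set difference a lower quartile of 0.11.

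Seeds were shared within 7 pairs, 14 of the 139 miRNAs: miR-4505 with miR-5787, miR-1268a with miR-1268b, miR-4492 with miR-5001-5p, miR-4723-5p with miR-7111-5p, miR-1237-5p with miR-4488, miR-1587 with miR-3620-5p and miR-3940-5p with miR-4507. Over 16 arrays 0 of the 14 passed the threshold in limma (17% of all probes) or in the exact Mann-Whitney test. At an unadjusted limma p under 0.05 there was 1, against 17 of the 139. The levels within a pair did not always move alike. miR-4723-5p and miR-7111-5p differed between the control sets by -0.31 and 0.73 on the log2 scale. miR-1237-5p and miR-4488 differed by 0.92 and 0.76, and within arrays 1 to 4 their log2 fold changes were 1.07 and 0.34. miR-3940-5p and miR-4507 had 0.47 and 0.03 within arrays 1 to 4. miR-1587 and miR-3620-5p, which are nearly alike in sequence, had small values in each contrast, with control set differences of 0.12 and 0.10. Whether probes of like sequence shared signal was not tested.

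The later-named sequences were short and rich in G. The median GC content was 70.6% (31.8% to 94.7%) over 119 sequences against 52.1% over the 216 others, the median G content was 52.2% against 30.4%, and the median length was 21 against 22 nucleotides. Above a GC content of 60% stood 90 of the 119 and 72 of the 216. Across the 119 miRNAs, which share arrays and normalization, GC content and the control set difference had Pearson's r = 0.16 and Spearman's rho = 0.20. Across the 216 other probes these were 0.55 and 0.56. GC content and the change within arrays 1 to 4 had r = 0.29 in the 119 and 0.34 in the 216, and with the change within arrays 5 to 8 r = -0.18 and -0.34. The change over 16 arrays had r = 0.14 and 0.05. These are descriptions across probes, which are not replicates.

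In each of 5 bands of GC content the median control set difference was higher over the later-named miRNAs than over the others. From 50% to under 60% GC, the median log2 difference was 0.19 over 19 later-named miRNAs and -0.19 over 56 others. From 60% to under 70% it was 0.54 over 31 and 0.05 over 42, from 70% to under 80% 0.43 over 35 and 0.34 over 21, and from 80% upward 0.64 over 29 and 0.46 over 11. Under 50% there were 5 later-named miRNAs, with a median of -0.04, and 86 others with -0.73. The part of GC content in the set difference was not tested.

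**Figure D5:**
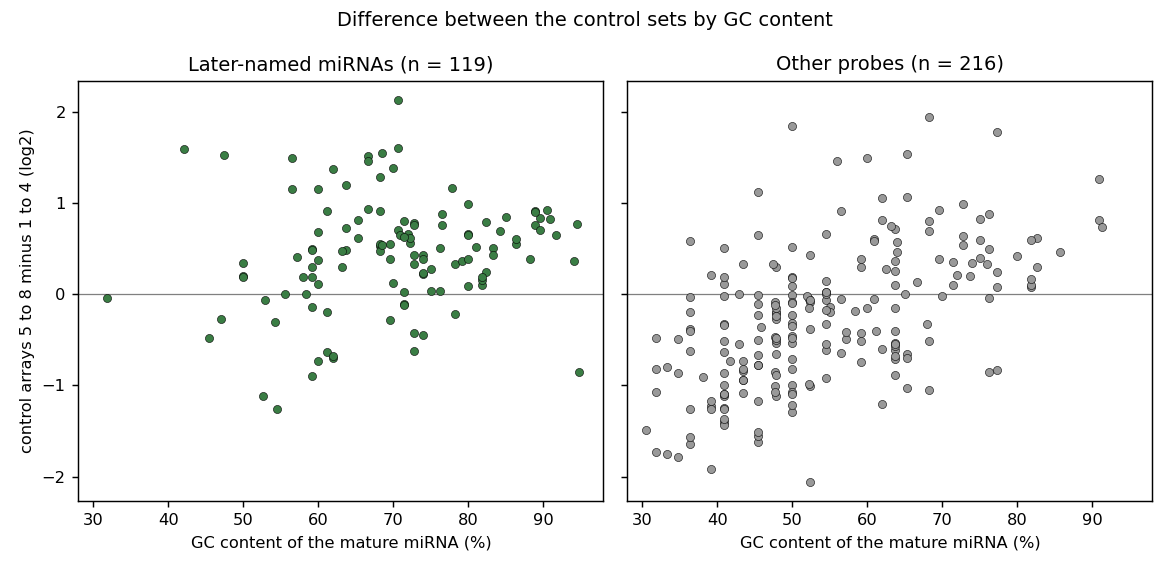
Log2 difference between control arrays 5 to 8 and 1 to 4 (vertical axis) against the GC content of the mature miRNA in percent (horizontal axis), one point per probe with a RefSeq sequence, for 119 later-named miRNAs (left) and 216 other probes (right). Most points on the left lie above 0 and at 60% GC or more, and the cloud on the right rises with GC content (Pearson's r = 0.55).

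One of the 139 comes from a gene known to be amplified in OE19 cells. miR-4728-5p, chosen for its place at chr17:39726496-39726518 (plus, GRCh38.p14) within ERBB2, which encodes a receptor tyrosine kinase, had 14.1, 15, 7.02, 15.5, 20.1, 19.9, 17.3 and 18.6 in control arrays 1 to 8. Telmisartan arrays 1 to 8 had 14, 14.4, 7.70, 10.2, 18.2, 17.0, 14.4 and 13.4. The groups overlapped, array 3 was lowest in both, and the log2 fold change was -0.21 (standard error 0.21, limma adjusted p = 0.641).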

How the data were processed

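The authors labeled total RNA, hybridized it to a Toray human miRNA chip (version 21) and scanned 1 color. For each spot they deposited the raw intensity and the intensity minus the background of its array, and spots at or below the detection level are empty. The deposited table of normalized intensity covers the 382 probes detected on all arrays. It was rebuilt by quantile normalization of the intensities minus background of these probes to a relative difference of 4.88e-10, and log2 of these values was tested.

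limma 3.58.1 in R 4.3.3 (lmFit, eBayes) was fitted over all 382 probes, Benjamini-Hochberg adjusted over them, with a threshold of 0.05. A second fit with 4 cells (treatment by arrays 1 to 4 or 5 to 8) gave the within-set changes, the interaction and the control set difference. The sets come from the numbers in the sample titles. The fits were tested on simulated data. The members, lists and tests were chosen with earlier results of these data known. miRNAs were named where they passed the threshold, had 1 of the 5 largest changes or set differences in a direction or 1 of the 5 lowest interaction p-values, were on the study's list, had both arms measured, shared a seed or were in the mirtron run. Deviations of same-numbered arrays from their group means correlated at 0.15 to 0.86, so the number was also used as a block. Of the 8 control arrays, 2 correlated best with the telmisartan array of their own number, and deviations from the means of group and array set correlated at -0.46 to 0.45. RefSeq sequences were matched by name. The number of arrays limits the precision. Alternatives were other normalizations, normexp with an offset of 50, an intensity trend, the exact Mann-Whitney test, leaving out the dimmest 25% of probes, blocks and each array left out.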

Additional observations from a re-analysis of the deposited data

Results flagged for a closer look

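Among the 49 named miRNAs, 1 array stood apart from the other 7 of its group in 7 of 98 groups examined (Dixon's critical ratio 0.526 for 8 arrays). That ratio is passed in about 1 in 20 groups of 8 independent values from a single normal spread. The groups here share arrays and each joins both array sets, so this rate need not hold for them. The low arrays were control array 3 for miR-6131 (18.3, next 31.9) and, in the telmisartan group, array 5 for miR-7114-5p (9.22, next 13), array 1 for miR-1268b (11, next 13.3) and array 4 for miR-4442 (9.73, next 29.0). The high arrays were telmisartan array 6 for miR-4294 (68.1, next 45.7) and miR-5787 (629.8, next 486), and control array 7 for miR-3940-5p (15.1, next 13.1).

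For 20 named miRNAs the treatment by array set interaction passed the threshold (limma, adjusted p under 0.05). The log2 change within arrays 5 to 8 minus that within arrays 1 to 4 was -1.74 for miR-4294, -1.5 for miR-1275, -1.25 for miR-7150, -1.21 for miR-1237-5p, -0.95 for miR-1469 and -0.91 for miR-4530. It was -0.78 for miR-4749-5p, -0.77 for both miR-5787 and miR-8059, -0.72 for miR-3135b, -0.69 for miR-4488, -0.59 for miR-4485-3p, -0.53 for miR-3940-5p and -0.33 for miR-1268a. In the opposite direction it was 0.34 for miR-4632-5p, 0.60 for both miR-7114-5p and miR-4664-5p, 0.79 for miR-4289, 0.81 for miR-4521 and 1.17 for miR-4638-5p.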

How the results depend on the processing

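With quantile normalization over the probes detected on each array, which also tested more probes (646) and set undetected ones to the lowest level, 0 miRNAs rose, 0 fell, 0 had an interaction and 0 differed between the control sets, while the median of all tested probes shifted by 0.24 over 16 arrays and 1.53 between the control sets. There the control set difference turned to 0.57 for miR-4289, 0.48 for miR-4521, 0.64 for miR-4634 and 0.86 for miR-4664-5p, the change within arrays 1 to 4 to 0.46 for miR-4634, 0.33 for miR-4664-5p and 0.22 for miR-7114-5p, and that within arrays 5 to 8 to -0.17 for miR-6516-5p. The cause was not tested.

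Against 4 that rose over 16 arrays, there were 0 without scaling (median of all probes 0.18), 2 with normexp, 2 without the dimmest 25% of probes, 34 in arrays 1 to 4 only and 0 in arrays 5 to 8 only. Against 5 that fell, there were 2 without scaling, 3 with the exact Mann-Whitney test, 8 with the array set as a block and 13 in arrays 1 to 4 only. Leaving out 1 array gave 1 to 5 rises, 3 to 7 falls, 27 to 63 interactions and 92 to 107 control set differences. The higher share of interactions was 15.4%, 28.6% with median scaling and 2.08% without scaling, and that of control set differences 85.4%, 77.8% and 97.5%.

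With the array number as a block (replicate block), 3 rose, 6 fell and 48 had an interaction: miR-8059 lost its call and miR-3663-5p gained one, and the other 8 calls were shared. With the deposited table or an intensity trend, the same 9 miRNAs were called.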
